A study of Mus musculus with 8 samples.

Results

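The chemokines examined here were the 10 genes Ccl2, Ccl5, Ccl7, Ccl8, Ccl9, Cxcl1, Cxcl5, Cxcl10, Cxcl12 and Cx3cl1, ligands that vascular smooth muscle cells are known to make. They were chosen by name, and all probes that carried one of these symbols in the deposited probe table were taken, whatever their values. The choice was made with earlier results of these data known. Of the 10 genes, 8 had a probe, with 12 probes in all among the 25697 probes and 18138 symbols of the table. Probes with the symbols Ccl8 and Cxcl5 were not analysed here. A probe was tested if any array had a detection p-value below 0.01 for it, and 10 of the 12 probes passed, at least 1 for each of the 8 genes. The 2 that did not pass were both Cxcl12 probes.

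The samples were primary mouse aortic smooth muscle cells (MAoSMC), grown out of explanted pieces of several mouse aortas. They were transfected by RNAiMAX with either a scrambled control oligo or a moR-21 mimetic, each at 5 nM, for 48 h. The study's methods name wild type C57/Bl6 mice for its carotid injury model, and their section on the explants names no strain. A moR is a short RNA cut from the primary transcript right beside a microRNA, and moR-21 lies beside miR-21. Each treatment had 3 samples, and control sample 1 and moR-21 sample 3 had 2 arrays each, so that 8 arrays stood for 6 samples. The labels name the cells as smooth muscle in the source and cell type fields and write AoECs, an endothelial abbreviation, in the description. The labels do not say whether the samples of a group came from separate cultures, so the p-values measure the spread between these samples, which may be technical.

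Chemokines are small secreted proteins that guide leukocytes and stem cells along a gradient by binding G protein-coupled receptors. They are named by the spacing of their first cysteines as CC, CXC or CX3C ligands, and many of them are held on cell surfaces by heparan sulfate. In the vessel wall, smooth muscle cells that leave their contractile state become a source of CC and CXC ligands that attract monocytes and neutrophils, and Cxcl12 is known for drawing progenitor cells to an injured artery. NF-kB, AP-1 and the interferon factors are the regulators best known for switching these genes on.

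Part of the sequence that moR-21 comes from is shown first, and the mimetic itself is not printed. Printed are the 17 bases that the miR-21a hairpin of the table used here holds before miR-21a-5p, at chr11:86584142-86584158 on the minus strand of GRCm38.p6, taken from RefSeq. The capitals mark the stretch in which the study's mutant mimetics carried their substitutions. By the seed positions that the study numbers, moR-21 begins upstream of the first base printed, so its 5′ end is not shown.
bases before miR-21a-5p: uGUACCaccuugucgga

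The 250 bases before the start of transcription were taken from RefSeq (GRCm38.p6) for the 6 members that matched, which were Ccl8, Ccl9, Cxcl1, Cxcl10, Cxcl12 and Cx3cl1. The 4 printed here belong to the genes on which the results turn, namely the 3 with the largest differences (Ccl9, Cxcl1 and Cxcl12) and Cxcl10, the textbook interferon-induced ligand. Capitals mark the letters that matched 1 of 4 motifs searched on both strands: an NF-kB core (GGANNTTCC), an interferon response core (GAAANNGAA), the AP-1 site (TGANTCA) and the TATA box (TATAAA).
Cxcl1: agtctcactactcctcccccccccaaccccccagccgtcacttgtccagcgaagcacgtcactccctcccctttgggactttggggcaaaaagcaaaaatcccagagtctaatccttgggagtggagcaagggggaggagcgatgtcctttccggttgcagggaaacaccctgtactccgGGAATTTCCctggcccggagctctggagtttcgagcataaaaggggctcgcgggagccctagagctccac
Cxcl10: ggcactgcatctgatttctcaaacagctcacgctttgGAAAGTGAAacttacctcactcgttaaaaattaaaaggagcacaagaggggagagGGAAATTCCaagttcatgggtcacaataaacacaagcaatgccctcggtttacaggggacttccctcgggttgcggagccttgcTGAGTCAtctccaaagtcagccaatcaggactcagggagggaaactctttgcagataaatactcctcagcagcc
Ccl9: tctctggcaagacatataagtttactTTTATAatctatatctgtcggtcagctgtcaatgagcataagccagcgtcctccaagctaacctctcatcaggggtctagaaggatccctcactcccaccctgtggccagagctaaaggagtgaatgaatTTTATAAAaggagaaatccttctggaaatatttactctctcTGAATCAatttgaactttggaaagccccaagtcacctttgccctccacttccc
Cxcl12: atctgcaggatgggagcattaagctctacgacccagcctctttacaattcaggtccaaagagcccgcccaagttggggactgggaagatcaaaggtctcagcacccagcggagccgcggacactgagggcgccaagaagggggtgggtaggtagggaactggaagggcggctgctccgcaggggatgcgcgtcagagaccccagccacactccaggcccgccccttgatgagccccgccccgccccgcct

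The window of Cxcl1 lies at chr5:90890995-90891244 on the plus strand and held 1 match, to the NF-kB core, ending 62 bases before the start. The window of Cxcl10 (chr5:92348890-92349139, minus strand) held 1 match each to the NF-kB, interferon and AP-1 motifs. That of Ccl9 (chr11:83578637-83578886, minus strand) held 1 AP-1 match and 3 TATA matches, of which 2 overlap on opposite strands. None of the 4 motifs matched in the window of Cxcl12 (chr6:117168285-117168534, plus strand). Of the 32851 promoters of the same length, 3.59% held the NF-kB letters, 7.13% the interferon letters, 6.75% the AP-1 letters and 12.4% the TATA letters, and a match describes letters only.

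The members lie in clusters, as chemokine genes do. On chromosome 11 of GRCm38.p6, Ccl2 (82035577 to 82037452) and Ccl7 (82045712 to 82047525) are 8259 bases apart, and Ccl5 (83525778 to 83530518) and Ccl9 (83572917 to 83578636) are 42398 bases apart. Cxcl1 (90891245 to 90893121) and Cxcl10 (92346638 to 92348889) share chromosome 5, while Cxcl12 lies on chromosome 6 (117168535 to 117181368) and Cx3cl1 on chromosome 8 (94772180 to 94782427). All are protein-coding, and RefSeq lists 3 transcripts for Cxcl12 and 1 for each of the others.

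Levels below are log2 of the quantile normalized probe intensity, with arrays of the same sample averaged, and differences are log2 fold changes of moR-21 mimetic minus scrambled control with their standard errors (SE) from limma. A probe was called, that is, said to rise or fall, at a fold change over 1.3 (0.38 on the log2 scale) with an adjusted p under 0.002. Median intensity ran from 102 to 109 over the 8 arrays and 10285 to 10512 probes were detected per array. Txndc5, taken as the check that the mimetic acted, fell by 2.02 (SE 0.0546, limma adjusted p = 1.70e-11). With 3 samples a group, their number limits the precision.

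Of the 8 chemokines, read at the brightest tested probe of each, 2 rose with the moR-21 mimetic (Ccl9 and Cxcl12) and 0 fell. Over all 8727 tested symbols, 3.41% rose and 4.38% fell. The member differences ran from -0.13 to 0.46 with a median of 0.26, against a median of 0.0056 over all tested symbols, and 6 of the 8 lay above 0. The members were chosen with earlier results of these data known, so comparison with all symbols or probes cannot show whether chemokines moved more than other genes. By probe, 2 of the 10 tested member probes rose (background 3.12% of 11651 tested probes) and 1 fell (background 3.85%). The probe that fell also belongs to Cxcl12, whose detected probes did not move together. The Cxcl12 probe that rose carried the symbol without a definition. With the mean of a gene's detected probes, 1 member was called higher. All 3 moR-21 samples lay above all 3 control samples for 6 of the 10 probes and below them for 2, where such separation held for 23.7% and 21.2% of all tested probes. These are RNA levels of whole cultures, in which a smaller number of cells of a type and less RNA per cell cannot be told apart.

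**Figure D1:**
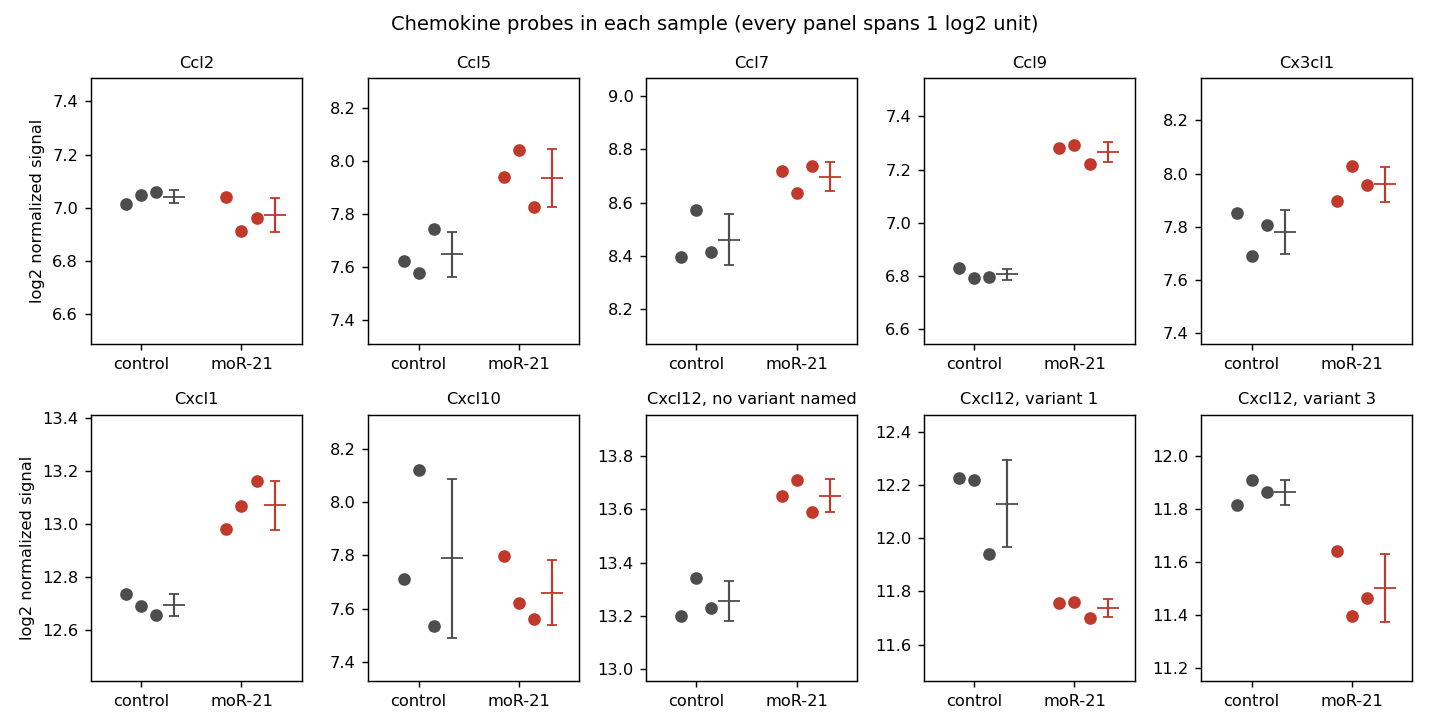
Log2 normalized signal of the 10 tested chemokine probes in each of the 3 scrambled control (grey) and 3 moR-21 mimetic (red) samples, with the group mean and SD beside the points; every panel spans 1 log2 unit. The moR-21 points lie apart from and above the controls for Ccl5, Ccl7, Ccl9, Cx3cl1, Cxcl1 and the Cxcl12 probe with no variant named, and below them for the other Cxcl12 probes.

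Ccl9, a CC ligand of Ccr1 that attracts myeloid cells, gave the largest difference of the members. Its log2 signals were 6.83, 6.79 and 6.79 in control samples 1 to 3 and 7.28, 7.29 and 7.22 in moR-21 samples 1 to 3. The groups did not overlap, and the gap between them was many times the spread within either. Ccl9 rose by 0.46 (SE 0.0452, 95% interval 0.36 to 0.56, limma adjusted p = 3.35e-06), a fold change of 1.38. The probe was dim, however, being detected on 1 of the 4 control arrays and on 4 of the 4 moR-21 arrays. For so dim a probe the size depends on how background is treated, and with a normexp correction the difference was 1.06, the widest departure seen for any member.

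Ccl5, which lies beside Ccl9 on chromosome 11, attracts T cells and monocytes through receptors that include Ccr1 and Ccr3. It read 7.62, 7.58 and 7.74 in the controls and 7.94, 8.04 and 7.83 with moR-21. The moR-21 samples all lay higher, the closest pair being moR-21 sample 3 and control sample 3. The difference of 0.29 (SE 0.0607, interval 0.16 to 0.42, limma adjusted p = 0.00211) met neither cutoff, with a fold change of 1.22.

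The monocyte chemoattractants Ccl2 and Ccl7, neighbours on chromosome 11 that both bind Ccr2, gave different readings. Ccl2, the main ligand for recruiting monocytes from blood, read 7.02, 7.05 and 7.06 in the controls and 7.04, 6.91 and 6.96 with moR-21. These groups overlapped, and the difference was -0.07 (SE 0.0481, interval -0.17 to 0.03, limma adjusted p = 0.293). The Ccl2 probe was dim, though detected on 8 of the 8 arrays, and with normexp the difference was -0.17. Ccl7, which also binds other CC receptors, read 8.40, 8.57 and 8.41 in the controls and 8.72, 8.64 and 8.74 with moR-21. Its groups did not overlap, but the difference of 0.24 (SE 0.0553, interval 0.12 to 0.36, limma adjusted p = 0.00417) was not called. The repeat arrays of control sample 1 differed by -0.22 for Ccl7 and those of moR-21 sample 3 by 0.22 (array B minus array A), which is nearly as large as the difference between groups. Taking only the A arrays of the repeated samples gave a Ccl7 difference of 0.16, and only the B arrays 0.31. Whether the 2 neighbours differed from each other in response was not tested.

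**Figure D2:**
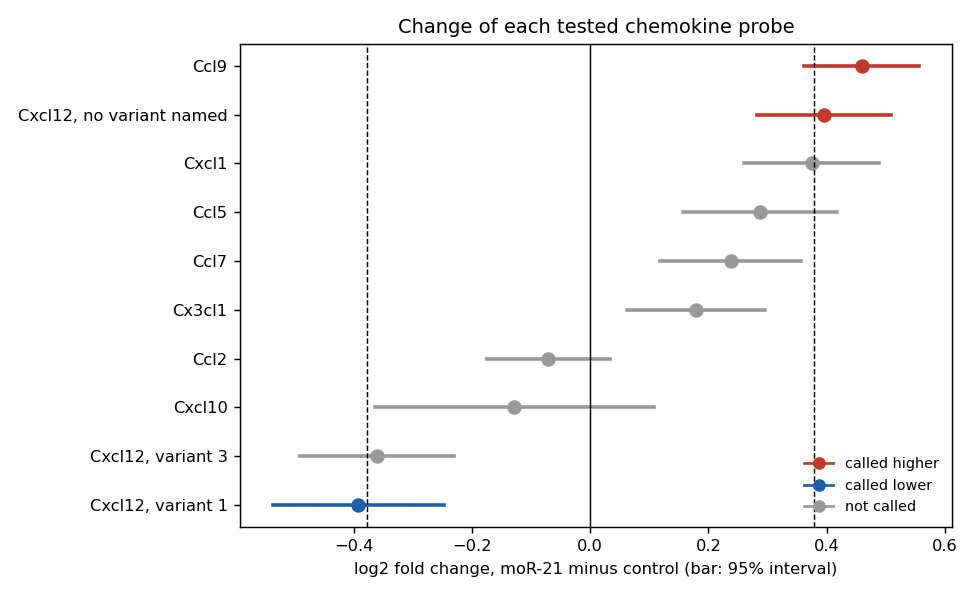
Log2 fold change (moR-21 mimetic minus scrambled control, 3 samples each) of the 10 tested chemokine probes, with limma 95% intervals; dashed lines mark the fold change cutoff. Ccl9 at 0.46 and the Cxcl12 probe with no variant named at 0.40 are the 2 called higher, the Cxcl12 variant 1 probe at -0.39 is the 1 called lower, and Cxcl1 at 0.37 sits just inside the cutoff.

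Cxcl1, a CXC ligand of the ELR class that attracts neutrophils through Cxcr2, was among the brightly read probes, at 12.74, 12.69 and 12.66 in the controls and 12.98, 13.07 and 13.16 with moR-21. Every moR-21 sample lay above every control sample, and the narrowest gap, between moR-21 sample 1 and control sample 1, was wider than the range of the controls. The difference of 0.37 (SE 0.0531, interval 0.26 to 0.49, limma adjusted p = 9.04e-05) passed on p but not on size, as its fold change of 1.2965 was under 1.3, so it was not called. It passed both cutoffs under 6 of 18 alternatives, among them leaving out control sample 1 (0.40) or moR-21 sample 1 (0.42). Its window is the one printed above with the NF-kB letters and no other match.

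Cxcl10, a CXC ligand without the ELR motif that is induced by interferon and attracts T cells through Cxcr3, had the widest error of the members. Its signals were 7.71, 8.12 and 7.54 in the controls and 7.80, 7.62 and 7.56 with moR-21, so the groups overlapped and control sample 2 stood highest of the 6 samples. The difference was -0.13 (SE 0.110, interval -0.36 to 0.11, limma adjusted p = 0.419). It turned to 0.04 without control sample 2. Its promoter, like that of Cxcl1, held a match to the NF-kB core, together with interferon and AP-1 letters.

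Cx3cl1, the only CX3C ligand, is made as a membrane-bound protein that can tether cells bearing Cx3cr1 and is shed by proteases. It read 7.85, 7.69 and 7.81 in the controls and 7.90, 8.03 and 7.96 with moR-21. The groups came close to each other without overlapping (moR-21 sample 1 and control sample 1), and the difference of 0.18 (SE 0.0544, interval 0.06 to 0.30, limma adjusted p = 0.0206) was not called. Its repeat arrays differed by 0.13 in control sample 1 and by 0.31 in moR-21 sample 3, the second being more than the difference between the groups.

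Cxcl12, the ligand of Cxcr4 and Ackr3 and the member that recruits progenitor cells, had 5 probes, and its 3 detected probes did not move together. The brightest carried the symbol but no definition, unlike the other Cxcl12 probes, so its link to Cxcl12 rests on the symbol alone. This probe, with no transcript variant named, read 13.20, 13.34 and 13.23 in the controls and 13.65, 13.71 and 13.59 with moR-21. It rose by 0.40 (SE 0.0528, interval 0.28 to 0.51, limma adjusted p = 5.38e-05, fold change 1.32), with no overlap of the groups. The detected probe of transcript variant 1 went the other way, from 12.23, 12.22 and 11.94 in the controls to 11.75, 11.76 and 11.70 with moR-21. It fell by 0.39 (SE 0.0676, interval -0.54 to -0.25, limma adjusted p = 0.000461, fold change 1.31), again without overlap, although control sample 3 lay closer to the moR-21 samples than to the other controls. The detected probe of transcript variant 3 read 11.81, 11.91 and 11.86 in the controls and 11.64, 11.40 and 11.47 with moR-21. All its moR-21 samples were lower, but its difference of -0.36 (SE 0.0605, interval -0.49 to -0.23, limma adjusted p = 0.000372) was under the fold change cutoff at 1.28.

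The last 2 Cxcl12 probes, 1 for variant 1 and 1 for variant 3, were detected on 0 of the 8 arrays and were not tested. Their signals in the 6 samples lay between 6.55 and 6.70, with group differences of -0.0023 and 0.05. Thus 1 probe of each named variant was read well above background while another of the same variant was not detected. The places in the gene that the 5 probes cover were not analysed here.

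**Figure D3:**
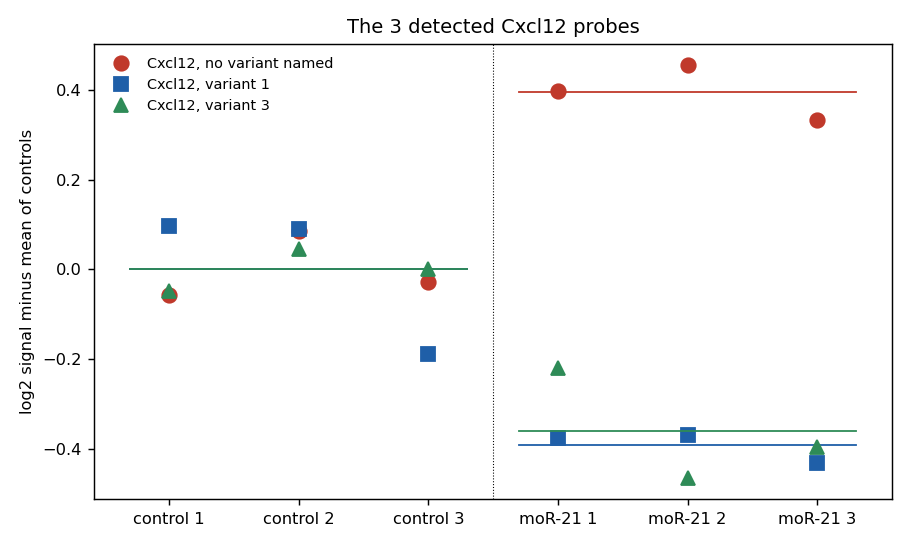
Log2 signal of the 3 detected Cxcl12 probes in each of the 6 samples, minus that probe's mean over the 3 scrambled controls; lines are group means. In the moR-21 samples the probe with no variant named lies about 0.40 above the controls and the probes of variants 1 and 3 lie 0.39 and 0.36 below.

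Whether probes of 1 gene differed in response was tested with limma diffSplice, which sets each probe's change against that of the other probes of its symbol. The brightest Cxcl12 probe differed from the others by 0.77 (limma adjusted p = 2.19e-07), and this passed in all 16 other fits tried. The variant 1 probe differed by -0.41 (limma adjusted p = 0.00110) and passed as well, but the variant 3 probe, at -0.36 (limma adjusted p = 0.00370), did not. Thus 2 of 3 Cxcl12 probes passed, where 3.29% of the 5074 probes of symbols with several tested probes did. The Cxcl12 disagreement was known from the study's own results before it was tested here. The 3 contrasts also share the same probes and are not independent. Comparison with that share therefore cannot show whether Cxcl12 stands out. The pass of the variant 1 probe was lost without any 1 of control samples 1 and 2 and moR-21 samples 1 to 3. Of 2150 symbols with at least 2 tested probes, 95 had at least 2 called probes, and Cxcl12 was the 1 symbol whose probes were called in opposite directions. That count was 0 with normexp, median scaling or no detection filter, and also without control sample 1, control sample 2, moR-21 sample 2 or moR-21 sample 3.

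The calls of single Cxcl12 probes stood close to the cutoffs. The brightest probe lost its call without control sample 1 (0.37) or moR-21 sample 2 (0.37), and with normexp (0.40, limma adjusted p = 0.00232). The variant 1 probe lost its call without control sample 1 (-0.34, limma adjusted p = 0.00312), control sample 2 (-0.35, 0.00366) or moR-21 sample 3 (-0.37, 0.00268), and also with normexp, median scaling or no detection filter. The variant 3 probe was called without control sample 1 (-0.38) or moR-21 sample 1 (-0.43). The direction of each of the 3 probes was the same in every fit run.

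**Figure D4:**
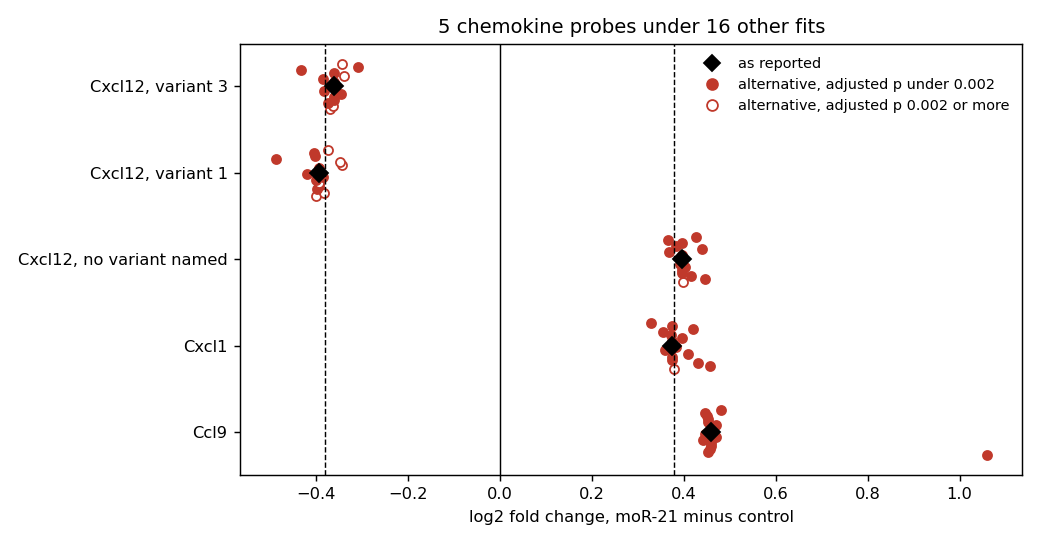
Log2 fold change of 5 chemokine probes as reported (black diamonds) and in 16 other fits (circles, filled where the limma adjusted p was under 0.002), with dashed lines at the fold change cutoff. Ccl9 stays above the cutoff, reaching 1.06 under normexp background correction, while Cxcl1 and the 3 Cxcl12 probes fall on both sides of it without a change of sign.

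Among the other chemokine ligands listed for comparison, 27 had a probe, 6 of these were tested and 0 were called, with a median difference of 0.03. They were Ccl11 (0.02), Ccl25 (-0.16), Ccl27 (0.04), Cxcl4 (0.03), Cxcl15 (0.29) and Cxcl16 (-0.07). The highest, Cxcl15, a lung-enriched ELR ligand, had a limma adjusted p of 0.000443 but a fold under the cutoff. All 8 members with a probe were detected on at least 1 array, against 6 of these 27, of which Cxcl4 was detected on 1 array only. The members were chosen with earlier results of these data known, so this contrast cannot show whether they are the better detected. The difference between the members and the others was not tested.

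The signalling receptors examined were not detected in these cells. Of 22 chemokine receptors with a probe, 1 was tested and the others were detected on 0 of the 8 arrays, among them Ccr1, Ccr2 and Ccr3 for the CC ligands, Cxcr2, Cxcr3, Cxcr4 and Cx3cr1 for the others, and the atypical receptors Ackr1 and Ackr3. The 1 tested was Ccrl2, an atypical receptor that does not signal as the others do, with a difference of 0.06 (SE 0.0481, limma adjusted p = 0.363).

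Among proteins that cut or hold the members, 5 were tested and 0 were called. Adam17, the protease that sheds Cx3cl1, came nearest. It read 8.39, 8.32 and 8.27 in the controls and 7.98, 7.94 and 8.02 with moR-21. All moR-21 samples were lower, and the difference of -0.35 (SE 0.0482, limma adjusted p = 7.16e-05) passed on p alone. Adam10, the other Cx3cl1 sheddase, and Dpp4, which trims Cxcl12 and Cxcl10, were detected on 0 arrays. Of 5 tested signalling proteins downstream of the receptors, 0 were called.

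Of the genes listed as inducers of chemokines, a list that also holds inhibitors of NF-kB, 14 were tested and 1 was called. Over all tested symbols, 3.41% rose and 4.38% fell. The 1 called was Nfkbia, which encodes the inhibitor that holds NF-kB in the cytoplasm and is itself an NF-kB target. Nfkbia read 9.77, 9.86 and 9.70 in the controls and 9.19, 9.30 and 9.16 with moR-21, and it fell by 0.56 (SE 0.0545, limma adjusted p = 2.94e-06) with no overlap. The other tested genes of this list ran from -0.17 for Irf1, an interferon regulatory factor, to 0.30 for Jun, an AP-1 subunit. The NF-kB subunits Rela (0.07), Nfkb1 (0.06), Nfkb2 (-0.03) and Relb (-0.16, limma adjusted p = 0.0253) were not called, and the cytokines Tnf, Il1b and Il6 were detected on 0 arrays. These genes were named after their values had been seen. Any link between Nfkbia and the members was not tested.

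**Figure D5:**
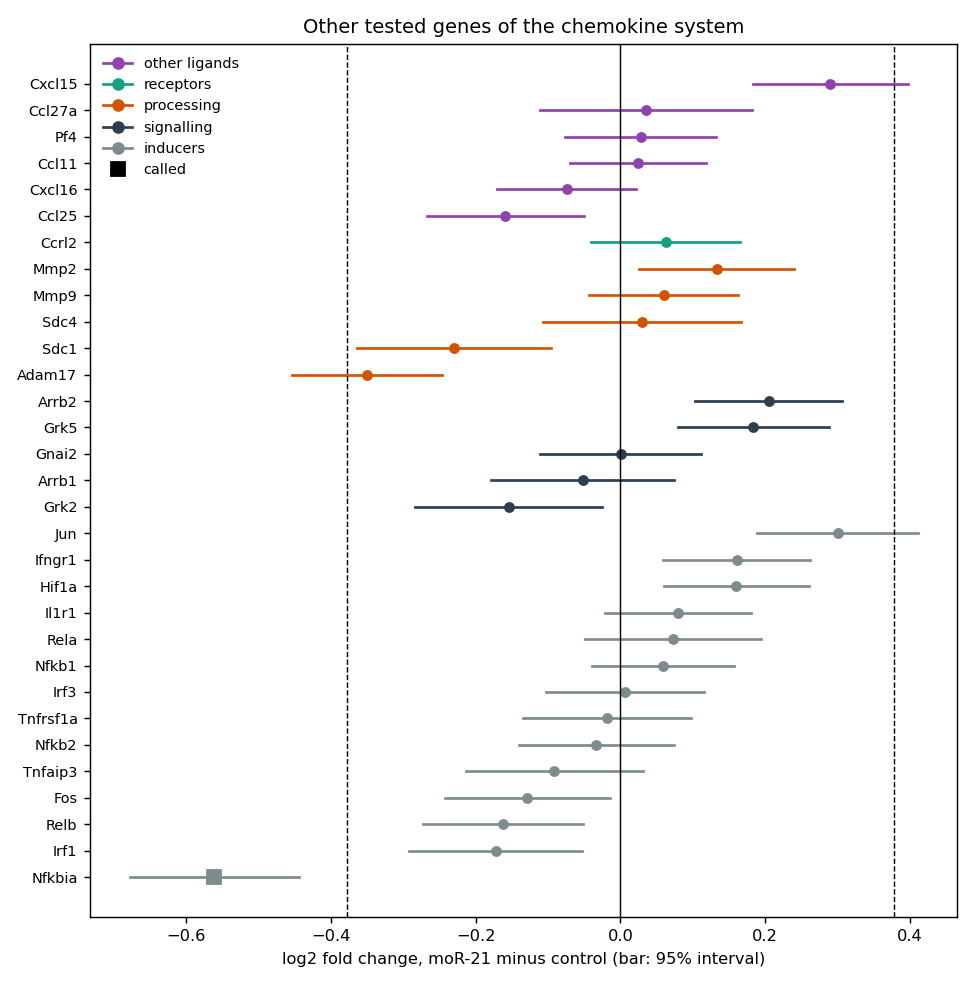
Log2 fold change (moR-21 mimetic minus scrambled control) with limma 95% intervals for the tested other ligands, receptors, processing proteins, signalling proteins and inducers; dashed lines mark the fold change cutoff and a square a called gene. Nfkbia at -0.56 is the 1 called gene, and Adam17 at -0.35 and Jun at 0.30 lie inside the cutoff.

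Some markers of cell types moved with treatment beside the members. Of 8 smooth muscle markers with a probe, 6 were tested. Acta2, smooth muscle actin, rose by 0.40 (limma adjusted p = 2.14e-05) at its brightest probe. Its dimmer probes rose by 0.64, 0.73 and 0.81, and all 4 were called higher. Tagln (0.20), Mylk (0.24), Smtn (-0.05) and Lmod1 (0.05) were not called. Des, at -0.3781 (limma adjusted p = 8.60e-05), was lower in all moR-21 samples. It fell just short of the log2 cutoff of 0.3785 and was not called either. Cnn1 and Myh11, markers of contractile cells, were detected on 0 arrays. The summed smooth muscle signal ran from 10294 to 10684 in controls and from 13076 to 13930 with moR-21, and without Acta2, which makes up most of it, from 1120 to 1179 and from 1136 to 1175. Of 7 endothelial markers only Vwf was detected (0.06), with sums of 719 to 730 in controls and 732 to 748 with moR-21, so the defining endothelial markers Pecam1 and Cdh5 were at background in cells whose labels partly read AoECs.

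Macrophages, T cells, fibroblasts and mesothelial cells also make chemokines. Of 10 macrophage markers 3 were tested: Lyz2, read by a probe with the older symbol Lyz, rose by 0.58 (limma adjusted p = 1.58e-06), while Cd14 (-0.27) and Csf1r (-0.01) were not called and the defining Adgre1, Ptprc and Cd68 were detected on 0 arrays. The summed signal of the 10 macrophage markers was 2521 to 2574 in controls and 2440 to 2510 with moR-21. This sum is weighted to Cd14 (control mean 10.43, against 8.46 for Lyz2) and also holds undetected markers. Of 5 T cell markers 0 were detected, and their sums were 480 to 489 and 481 to 496. The fibroblast marker Lum fell by 0.56 (limma adjusted p = 2.21e-06), with Dcn (-0.22), Pdgfra (-0.17) and Pi16 (-0.29) not called. Fibroblast sums, weighted to Dcn (control mean 13.34, against 11.38 for Lum), were 13906 to 14473 in controls against 11295 to 12545 with moR-21. The mesothelial marker Upk3b fell by 1.24 (limma adjusted p = 2.51e-10), with Krt19 (-0.13) not called and sums of 1057 to 1067 against 689 to 699. The part of these shifts in the chemokine values was not tested.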

How the data were processed

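The authors deposited non-normalized probe intensities from Illumina mouse bead arrays, read with BeadStudio, and beside each intensity a deposited detection p-value. The study's methods name BeadStudio for its own quantile normalization, lumi and limma for the steps after it, and both the MouseWG-6 and the MouseRef-8 design. All value columns matched a sample by name, and 0 were left without one. The 8 arrays were quantile normalized together, log2 transformed and averaged within each sample. Treatments were compared with limma 3.58.1 (lmFit, eBayes and diffSplice) in R 4.3.3 over 11651 probes, each detected (detection p-value below 0.01) on 1 or more arrays, with no covariate and with Benjamini-Hochberg adjustment over all of them. A call needed an adjusted p below 0.002 together with a fold change above 1.3, as in the study's methods. A gene was read at its brightest tested probe.

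All 10 chemokines were to be named, with their binding and processing partners, called genes of the other lists and detected markers. A few genes of the lists are not reported here and were left out of their counts. The members and lists were chosen with earlier results of these data known. Summed marker signals add the linear normalized signal of each listed gene with a probe. Alternatives changed background correction, scaling, the detection filter, the arrays used, the fit, the cutoffs and the samples. The fit was tested on simulated data with changes larger than any member difference, so recovery at the sizes reported here was not tested. Motifs and figures used Python 3.11.15 and matplotlib 3.10.9.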

Additional observations from a re-analysis of the deposited data

How the results depend on the processing

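Among the 10 tested probes the sign was kept in each of the 16 refits, except that Cxcl10 ran from -0.25 to 0.037 with a sample left out, the latter without control sample 2. Of the members, 2 were called higher, against 1 with normexp, 1 with the mean of a gene's detected probes, 0 at a fold change over 1.5, 3 with median scaling, cyclic loess, array A alone or all 8 arrays with the sample as a random block, and 1 to 3 when each sample was left out in turn (1 without moR-21 sample 2, 3 without moR-21 sample 1). The count by probe, also 2, gave the same numbers in these settings, apart from the mean over probes, which it cannot use. The 1 probe called lower became 0 with normexp, median scaling, no detection filter or a fold change over 1.5, 2 with array B alone, and 0 to 2 with a sample left out. The 2 Cxcl12 probes that differed from the rest became 1 with normexp, median scaling or array B alone, 3 with no detection filter or the random block, and 1 to 2 with a sample left out. Processing genes called went from 0 to 1 with normexp, and inducers from 1 to 2 with normexp and to 0 at a fold change over 1.5. The cause was not tested.

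The same-numbered samples correlated at 0.187, 0.0441 and 0.0597 in their deviations from group means, and differently numbered samples at -0.129 to 0.0693. Whether the numbers pair the samples was not settled, and the main fit did not pair them. With the replicate block, 365 probes were called higher and 450 lower, against 363 and 448 without it, and the Cxcl12 variant 3 probe passed the test of probe differences (-0.36, limma adjusted p = 0.000836). Dim signal limits Ccl9, and calls at a fold near 1.3 rest on 3 samples a group.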
